A study of Mus musculus with 34 samples.

Results

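The genes examined were 10 enzymes and enzyme subunits that write or remove repressive chromatin marks, chosen by name. They were the Polycomb repressive complex 2 (PRC2) core genes Ezh2, Suz12 and Eed, the maintenance DNA methylation genes Dnmt1 and Uhrf1, the de novo DNA methyltransferase genes Dnmt3a and Dnmt3b, and the TET dioxygenase genes Tet1, Tet2 and Tet3. All 10 were among the 48526 genes of the deposited table, and all 10 passed the filter on low counts that left 18292 genes for testing. RNA had been sequenced from 34 libraries of T cells isolated from the spleens of C57BL/6 mice aged 6 to 12 weeks. The 13 groups were unstimulated wild-type (WT) cells with 2 libraries, and 6 genotypes cultured with antibodies to CD3 and CD28 and recombinant IL-2 for 24 h (day 1) or 72 h (day 3). On each day there were 2 libraries of WT, 2 labelled CD28 KO, and 3 each labelled DKI (a CD28 allele), CD28 AYAA, CD28 Y170F and Ars2 KO. CD28 is the co-stimulatory receptor of T cells, and ARS2, encoded by Srrt, is a nuclear RNA-binding protein. The labels do not spell out DKI or AYAA, do not name the promoter or Cre behind the Ars2 deletion, and give no unstimulated cells of any mutant genotype.

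PRC2 places methyl groups on lysine 27 of histone H3 through its catalytic subunit EZH2, held in the complex by SUZ12 and EED, and the mark is associated with silent genes. DNMT1 copies cytosine methylation onto newly made DNA after UHRF1 has recognised the half-methylated site, whereas DNMT3A and DNMT3B can methylate sites that carried no mark. TET enzymes oxidise methylcytosine, a first step towards its removal. In T cells, EZH2 and DNMT3A are known for their roles in effector and memory differentiation, and DNMT1 and UHRF1 for their need in dividing cells.

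On GRCm38 the annotated genes lie at chr6:47530139-47595341 (Ezh2, minus strand), chr11:79993106-80034123 (Suz12, plus strand), chr9:20907209-20959888 (Dnmt1, minus strand) and chr17:56303321-56323486 (Uhrf1, plus strand). Promoter windows around the transcript starts of these 4 genes, of 10, held an E2F-like word, and they are shown for that word. Windows 2 and 3 of Dnmt1 and window 1 of Uhrf1 held none. Among the Polycomb and maintenance genes these 4 rose most in WT at day 1, described below. Tet3, without the word, rose by 1.21 on the log2 scale beside 1.25 for Suz12. The E2F-like words searched, on both strands, were TTTCCCGC, TTTGGCGC, TTTGCCGC and TTTCGCGC. Sequences are from RefSeq on GRCm38.p6, read 5′ to 3′ on the gene's strand, with the word in capitals.
Ezh2, chr6:47595010-47595037 (minus strand): ggttgctgcgTTTGGCGCtcggtccggt
Suz12, chr11:79992877-79992904 (plus strand): gacccctcatTTTCCCGCgaattcagtt
Dnmt1, chr9:20952825-20952852 (minus strand): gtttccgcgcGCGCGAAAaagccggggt
Dnmt1, chr9:20952574-20952600 (minus strand): cggggcagcgTTTGGCGCgggctgtgc
Uhrf1, chr17:56304118-56304145 (plus strand): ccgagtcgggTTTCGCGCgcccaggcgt
The same words occurred in 2.3% of 32851 promoter windows and in 4.5% of the 11269 tested genes that had a window. The windows of Eed, Dnmt3a, Dnmt3b, Tet1, Tet2 and Tet3 held no E2F-like word. Words of other motifs were also searched. CHR words were found in Suz12, Eed, Dnmt1 and Dnmt3b, an E-box in Dnmt3a and NRF1 words in Dnmt1. CCAAT was found in Ezh2, Suz12, Eed, Dnmt1, Uhrf1 and Tet3. CHR, E-box, NRF1 and CCAAT words occurred in 17.1%, 11.2%, 2.2% and 42.4% of the tested genes that had a window. A match is a description of the sequence and does not show that a factor binds there.

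Library depth ran from 8.3 to 47.8 M counts. Of the 34, 8 libraries held under 12 M: all 6 of DKI and the WT libraries numbered 4 on both days, while WT number 1 shared the depth range of the other stimulated genotypes. Values against each WT library alone are therefore given beside the pooled ones. Levels are given as CPM, read counts normalised to library size with TMM factors. The summed levels of cell type markers, here and below, are CPM of total counts without TMM factors. Srrt stood at 33.5 to 64.8 CPM in Ars2 KO and at 131 and 244 CPM in WT at day 1. At day 3 it was at 105 to 146 CPM in Ars2 KO and at 145 and 245 CPM in WT, and the groups overlapped. Cd28 was counted at 482 and 476 CPM in the libraries labelled CD28 KO at day 1 and at 387 and 411 CPM in WT, so gene-level counts do not check that label. The 12 T cell markers summed to between 2120 and 3430 CPM in every library. At day 3 they summed to 2740 and 2840 CPM in WT and to less in CD28 KO (2260 and 2270 CPM), Ars2 KO (2130 to 2330 CPM), CD28 AYAA (2340 to 2630 CPM) and DKI (2500 to 2680 CPM), where 8, 6, 7 and 8 of the 12 were called lower than WT. The 12 B cell markers summed to between 903 and 993 CPM in unstimulated cells, to at most 28.7 CPM in WT at day 1 and to between 95.2 and 133 CPM in CD28 KO at day 1, with 12.5 to 127 CPM in CD28 Y170F and 14.3 to 42.3 CPM in CD28 AYAA. Of these 12, 7 were called higher in CD28 KO than in WT at day 1, where 18.6% of tested genes were called higher. The 12 myeloid markers summed to 259 and 265 CPM in unstimulated cells and to at most 42.1 CPM in any stimulated library. All 12, with all 6 erythroid markers, were called lower in WT at day 1 than before stimulation, where 27.2% of tested genes were. The part of these cell type markers in the results was not tested. In bulk RNA, fewer cells of a type and less RNA per cell cannot be told apart.

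Stimulation of WT cells changed all 10 genes by day 1, with 9 higher and Tet1 lower, where 51.3% of all tested genes passed the same threshold, 24.2% higher and 27.2% lower (edgeR quasi-likelihood test, Benjamini-Hochberg adjusted p under 0.05 over all tested genes). Uhrf1, which recruits DNMT1, stood at 40.0 and 48 CPM before stimulation and at 412 and 229 CPM at day 1. Both stimulated libraries lay far above both unstimulated ones, a log2 fold change of 2.87 ± 0.33 (SE, n = 2 and 2; edgeR adjusted p = 1.2e-07). Ezh2, the PRC2 methyltransferase, went from 37.2 and 43.3 CPM to 226 and 146 CPM, again without overlap, with a log2 fold change of 2.21 ± 0.19 (edgeR adjusted p = 6.2e-10). Dnmt1 rose from 198 and 199 CPM to 573 and 379 CPM, a log2 fold change of 1.26 ± 0.19 (edgeR adjusted p = 4.3e-06). The other subunits of PRC2 rose less, Suz12 by 1.25 ± 0.18 and Eed by 0.81 ± 0.17 on the log2 scale. The de novo enzymes rose by similar amounts, Dnmt3a by 0.99 ± 0.11 and Dnmt3b by 0.95 ± 0.21.

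The TET genes did not move together. Tet3 stood at 138 and 159 CPM before stimulation and at 316 and 371 CPM at day 1, a log2 fold change of 1.21 ± 0.12 (edgeR adjusted p = 8.6e-09). Tet1 fell from 31.4 and 33.4 CPM to 16.9 and 13 CPM, a log2 fold change of -1.10 ± 0.21 (edgeR adjusted p = 1.2e-04). Tet2 had the smallest change of the 10, 0.28 ± 0.11 on the log2 scale (edgeR adjusted p = 0.039), and its WT libraries at day 1 were far apart at 118 and 163 CPM. With the replicate number as a block the Tet2 change was 0.15 (adjusted p = 0.29).

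At day 3, 9 of the 10 genes still differed from unstimulated WT (8 higher, 1 lower), where 50.5% of tested genes did. Dnmt3b was the exception, at 13.9 and 11.3 CPM against 11.4 and 12.3 CPM before stimulation, and did not pass (0.09 ± 0.22 on the log2 scale, edgeR adjusted p = 0.74). Eed and Tet1 passed close to the threshold (edgeR adjusted p = 0.037 and 0.03), and DESeq2 called 8 genes. Between day 1 and day 3, where 29.5% of tested genes changed, 2 of the 10 genes passed. Dnmt3a fell by 0.45 ± 0.11 and Dnmt3b fell by 0.85 ± 0.22 on the log2 scale (edgeR adjusted p = 0.003 and 0.0038). The count was 4 without WT number 4 at day 1 and 1 with only the groups compared in the fit; with the replicate number as a block it was 5.

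**Figure D1:**
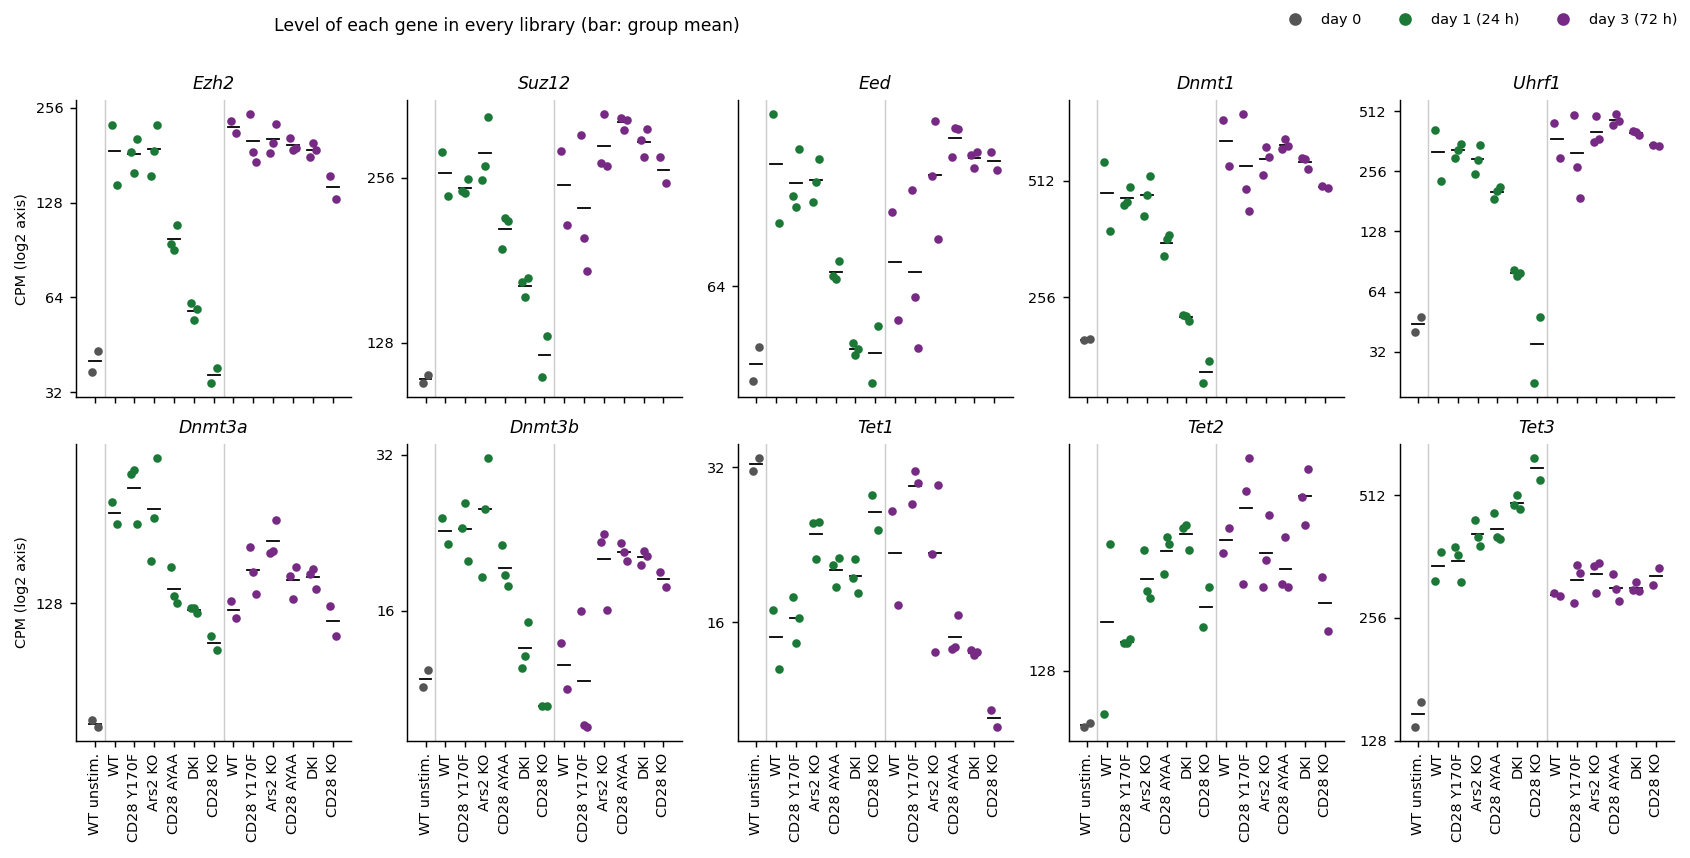
CPM of each gene (log2 axis) in every library, by group; points are libraries, bars are group means, and colours mark the day. At day 1 the CD28 AYAA, DKI and CD28 KO groups step down from WT for Ezh2 (97.7, 58.1 and 36.2 CPM) and step up for Tet3 (422, 490 and 596 CPM).

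Per kilobase of merged exons, Uhrf1 and Dnmt1 were the most abundant of the 10 in stimulated WT cells, at 75.3 and 64.5 CPM per kb at day 1, followed by Suz12 at 52.8 and Ezh2 at 27.8 CPM per kb. Tet1 was the least abundant, at 0.968 CPM per kb. Before stimulation the order differed, with Dnmt1 first at 26.9, Suz12 second at 22.3 and Ezh2 seventh at 6.03 CPM per kb. Across the 13 group means the highest exceeded the lowest 13.2 times for Uhrf1, 6.13 times for Ezh2 and 3.96 times for Dnmt1, but 1.53 times for Tet2. Ezh2 was highest in WT at day 3 and lowest in CD28 KO at day 1, and 8 of the 12 neighbouring pairs in that order of groups had overlapping libraries. Tet3 was highest in CD28 KO at day 1 and lowest in unstimulated WT, again with 8 of 12 neighbouring pairs overlapping. For Tet2, Eed and Dnmt3b 11 of 12 pairs overlapped, so that few steps in their order exceeded the spread between libraries.

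The libraries labelled CD28 KO showed the largest departure from WT at day 1. Of the 10 genes, 7 were lower and 2, Tet1 and Tet3, were higher, where 43.3% of tested genes were called, 18.6% higher and 24.7% lower. Uhrf1 was at 22.2 and 47.6 CPM, a log2 fold change against WT of -3.20 ± 0.34 (edgeR adjusted p = 9.0e-08). Ezh2 was at 34.1 and 38.2 CPM, a log2 fold change of -2.36 ± 0.19 (edgeR adjusted p = 3.9e-09). For both genes these libraries overlapped the unstimulated ones and lay apart from every WT library at day 1. Dnmt1 was at 153 and 175 CPM, below the 198 and 199 CPM of unstimulated cells, and differed from WT at day 1 by -1.54 ± 0.19 on the log2 scale. Dnmt3b was at 10.5 CPM in both libraries, with a log2 fold change of -1.12 ± 0.22. Suz12, Eed and Dnmt3a were lower by smaller amounts, with log2 fold changes of -1.10, -0.77 and -0.61.

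Tet3 moved the other way. It was at 633 and 558 CPM in CD28 KO at day 1, above both WT libraries of that day, with a log2 fold change of 0.79 ± 0.12 (edgeR adjusted p = 8.4e-06). Against unstimulated WT cells it was higher by 2.00 ± 0.12 on the log2 scale, whereas the same comparison gave -0.15 ± 0.18 for Ezh2, -0.33 ± 0.32 for Uhrf1 and -0.28 ± 0.19 for Dnmt1, none of which passed. In that comparison 3 of the 10 genes were called, all higher (Dnmt3a, Tet2 and Tet3), where 52.2% of tested genes were called. Against each WT library alone, the PRC2, maintenance and de novo genes were lower in CD28 KO at day 1. Their log2 fold changes ran from -3.55 (Uhrf1, WT number 1) to -0.47 (Eed, WT number 4). Against WT number 1 and number 4 alone, Tet3 was at 0.92 and 0.74 and Tet1 at 0.63 ± 0.26 and 1.07 ± 0.28. Tet2 was at 0.30 and -0.11.

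In DKI at day 1 the 3 PRC2 genes, both maintenance genes and both de novo genes were lower and Tet3 was higher, where 26% of tested genes were called, 10.3% higher and 15.8% lower. Uhrf1 was at 81.6, 76.2 and 79.6 CPM, a log2 fold change of -2.02 ± 0.28 (edgeR adjusted p = 1.4e-05). Ezh2 was at 61.2, 54.4 and 58.8 CPM, a log2 fold change of -1.68 ± 0.16 (edgeR adjusted p = 2.3e-07). The 3 libraries lay between CD28 KO and WT for both genes, without overlap. Tet3 was at 483, 513 and 473 CPM, a log2 fold change of 0.51 ± 0.11 (edgeR adjusted p = 0.0015). Against WT number 4 alone, the library of the same depth range, Ezh2 was at -1.28, Dnmt1 at -0.69 and Uhrf1 at -1.49 on the log2 scale. Suz12 was at -0.50, Eed at -0.47, Dnmt3a at -0.36, Dnmt3b at -0.62 and Tet3 at 0.44. All these values were smaller in size than against the pooled WT libraries. Compared directly with CD28 KO, where 9.06% of tested genes were called, DKI had more Ezh2 (0.68 ± 0.17) and more Uhrf1 (1.18 ± 0.30); without CD28 KO replicate 1 the count was 0, and without replicate 2 it was 1.

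CD28 AYAA at day 1 lay closer to WT. Ezh2 was at 94.2, 90.3 and 109 CPM, below both WT libraries and above all DKI libraries, with a log2 fold change against WT of -0.93 ± 0.16 (edgeR adjusted p = 0.0023). Dnmt3a, at 144, 131 and 128 CPM, was the other gene called, with a log2 fold change of -0.36 ± 0.10 (edgeR adjusted p = 0.047). These 2 of 10 stood beside 3.61% of tested genes. Against WT number 1 alone Ezh2 was at -1.25 and Dnmt3a at -0.45 on the log2 scale. The values were smaller against WT number 4 alone, at -0.56 and -0.29. How the count of called genes moved with each library left out is given below. Leaving out any 1 CD28 AYAA library left 1 gene called, and the shares of tested genes in such fits are not given. Uhrf1, at 185, 204 and 213 CPM, lay below both WT libraries but did not pass (-0.68 ± 0.28, edgeR adjusted p = 0.15).

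The subunits that hold EZH2 in the complex followed a similar order at day 1 over a narrower range. Suz12 was at 285 and 237 CPM in WT, at 190, 216 and 214 CPM in CD28 AYAA, at 165, 155 and 168 CPM in DKI and at 111 and 132 CPM in CD28 KO, and these 4 groups did not overlap. Eed was at 104 and 76.4 CPM in WT, at 65.8, 65.3 and 68.8 CPM in CD28 AYAA, at 54.5, 52.7 and 53.6 CPM in DKI and at 48.7 and 57.3 CPM in CD28 KO. For Eed the DKI and CD28 KO libraries overlapped each other and were close to the 49.1 and 53.9 CPM of unstimulated cells. Dnmt1 was at 230, 229 and 222 CPM in DKI and at 328, 361 and 370 CPM in CD28 AYAA, both below the 573 and 379 CPM of WT. Tet2, by contrast, was at 139 and 150 CPM in CD28 KO and at 168, 169 and 161 CPM in DKI, inside or next to the WT range, and was called in no genotype at day 1 against the pooled WT libraries. Against WT number 1 alone Tet2 was called higher in CD28 KO (0.30), DKI (0.48) and CD28 AYAA (0.40 on the log2 scale; edgeR adjusted p = 0.044, 0.0029 and 0.029), and against WT number 4 alone it was called in none of them.

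**Figure D2:**
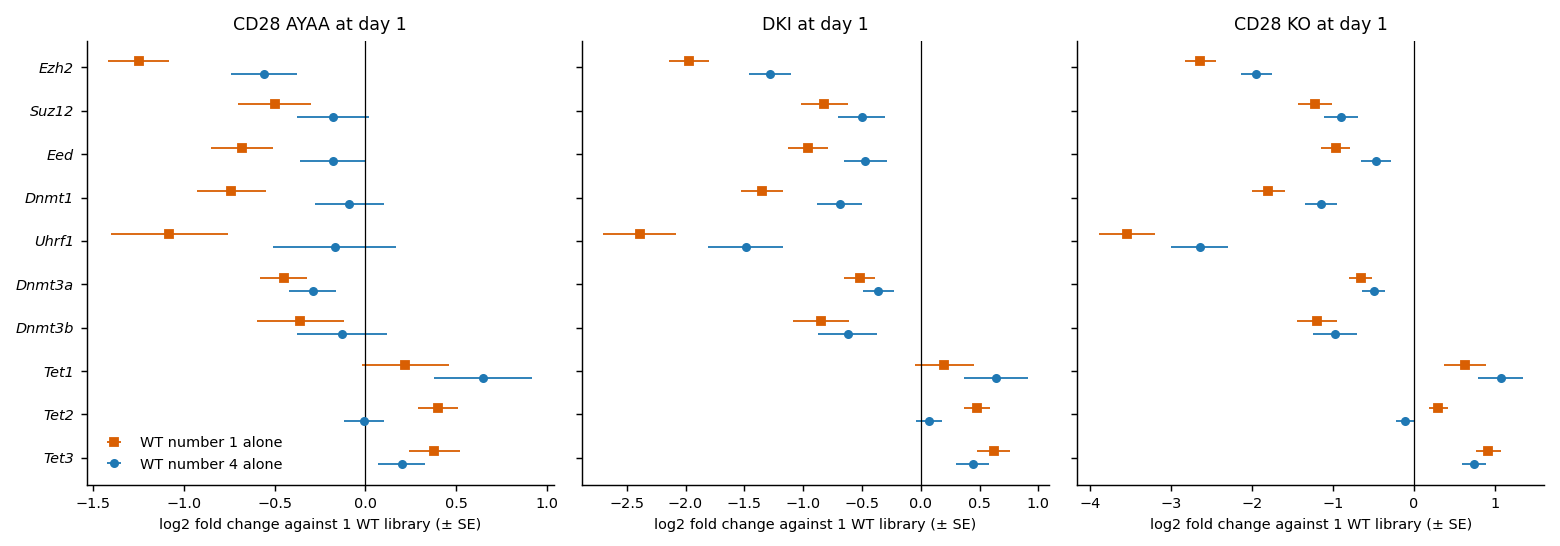
Log2 fold change (± SE) of each gene at day 1 in CD28 AYAA, DKI and CD28 KO, against WT number 1 alone (squares) and WT number 4 alone (circles). Ezh2 in DKI is at -1.97 and -1.28, and Ezh2 in CD28 KO at -2.64 and -1.95.

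CD28 Y170F and Ars2 KO differed from WT at day 1 in none of the 10 genes, where 0.0547% and 0.399% of tested genes were called by edgeR. At an unadjusted p under 0.05 the counts were 0 and 2, and DESeq2 called 0 in both. The 2 genes in Ars2 KO were Tet1, with a log2 difference of 0.65 ± 0.20 (95% interval 0.26 to 1.03, edgeR adjusted p = 0.18), and Tet3, with 0.26 ± 0.11 (0.05 to 0.47, edgeR adjusted p = 0.38). Neither passed, though for both genes the Ars2 KO libraries lay above both WT libraries. The 95% interval of the Ezh2 difference on the log2 scale was -0.35 to 0.29 for CD28 Y170F and -0.29 to 0.35 for Ars2 KO. For Uhrf1 the intervals were -0.54 to 0.57 and -0.67 to 0.44. The intervals give the differences compatible with the data and are not a limit of detection. The comparison of the CD28 alleles without WT gave log2 fold changes of -0.90 ± 0.15 for Ezh2 and -0.47 ± 0.09 for Dnmt3a in CD28 AYAA against CD28 Y170F at day 1, where 4.35% of tested genes were called. With the replicate numbers as a block and only these groups in the fit, all 10 genes passed. The 4.35% is from the main fit and does not apply to that count.

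**Figure D3:**
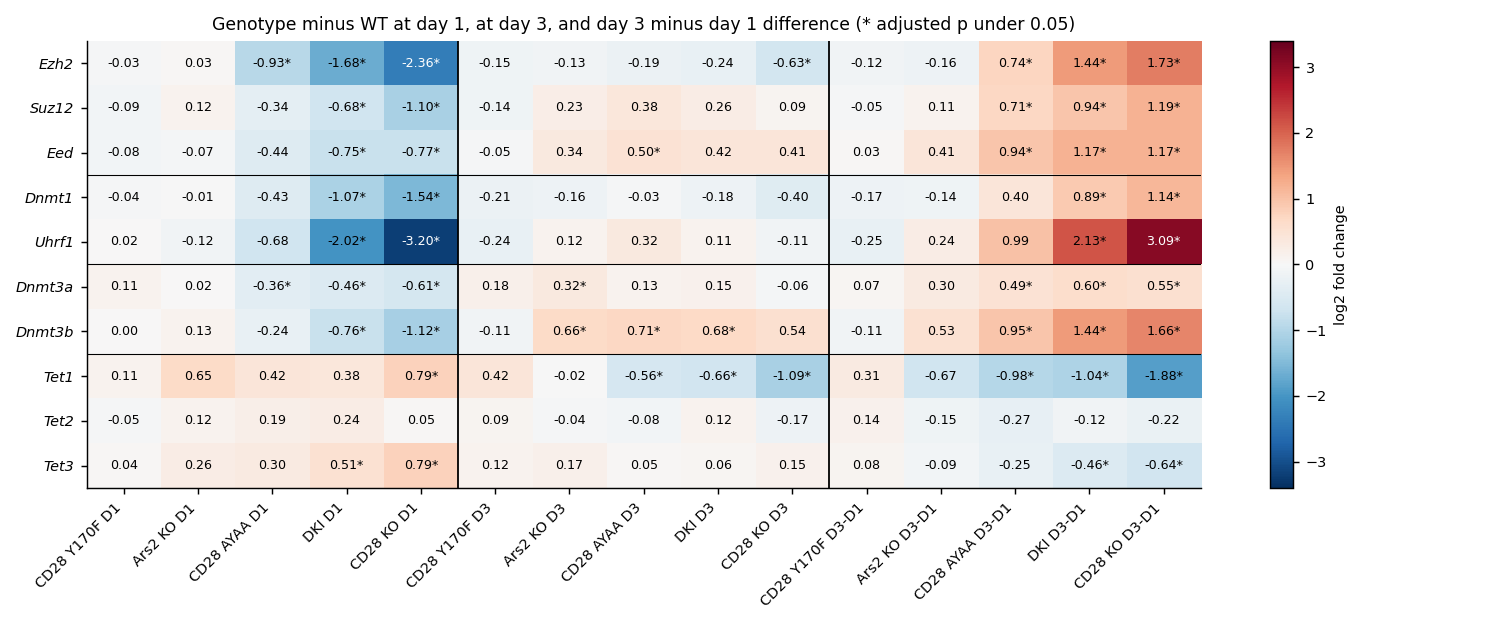
Log2 fold change of each gene (rows) for 5 genotypes against WT at day 1 and at day 3, and the day 3 minus day 1 difference (columns); asterisks mark adjusted p under 0.05. The day 1 block is mostly negative for the upper 7 genes in DKI and CD28 KO, to -3.20 for Uhrf1, and the day 3 block stays between -1.09 and 0.71.

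By day 3 the induced genes of CD28 KO, DKI and CD28 AYAA were near WT. Uhrf1 was at 346 and 343 CPM in CD28 KO, at 408, 401 and 389 CPM in DKI and at 434, 496 and 455 CPM in CD28 AYAA, beside 444 and 297 CPM in WT. The CD28 KO and DKI libraries lay inside the WT range, and none of the 3 genotypes differed from WT in Uhrf1. Among the 3 genotypes Ezh2 was called in CD28 KO, at 156 and 131 CPM against 232 and 213 CPM, a log2 fold change of -0.63 ± 0.18 (edgeR adjusted p = 0.014). It was -0.69 ± 0.22 against WT number 1 alone and -0.57 ± 0.22 against WT number 4 alone. Tet1 was lower in all 3 genotypes. It was at 10.8 and 10.0 CPM in CD28 KO, at 14.1, 13.8 and 14 CPM in DKI and at 14.2, 14.3 and 16.5 CPM in CD28 AYAA, beside 26.3 and 17.3 CPM in WT, which did not overlap with them. The log2 fold changes were -1.09 ± 0.22, -0.66 ± 0.20 and -0.56 ± 0.19 (edgeR adjusted p = 8.8e-04, 0.017 and 0.039). Against WT number 4 alone Tet1 was called in none of the 3.

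The change between the days was itself tested, as the difference from WT at day 3 minus that at day 1. It was called for 9 of the 10 genes in CD28 KO, 9 in DKI and 6 in CD28 AYAA, where 35.3%, 32.5% and 24.4% of tested genes were called. Uhrf1 had the largest value of the 10, at 3.09 ± 0.45 in CD28 KO and 2.13 ± 0.41 in DKI on the log2 scale (edgeR adjusted p = 1.4e-05 and 3.0e-04). With WT number 4 as the only stimulated WT, 1 gene was called in CD28 AYAA. Ars2 KO and CD28 Y170F had 0 of 10 by edgeR (3.68% and 0% of tested genes), with 2 and 0 at an unadjusted p under 0.05 and 0 in both by DESeq2.

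Dnmt3b, which had returned to its unstimulated level in WT by day 3, was higher than WT in Ars2 KO (0.66 ± 0.20), DKI (0.68 ± 0.20) and CD28 AYAA (0.71 ± 0.20) on the log2 scale. Its difference in CD28 KO was similar in size but did not pass (0.54 ± 0.22, edgeR adjusted p = 0.081). Against WT number 1 alone the values in Ars2 KO, DKI and CD28 AYAA were 0.53, 0.55 and 0.58. Against WT number 4 alone they were 0.82, 0.84 and 0.89. Dnmt3b was at 21.7, 22.5 and 16.1 CPM in Ars2 KO, above both WT libraries. With the replicate block the differences in Ars2 KO, DKI and CD28 AYAA were 0.55, 0.59 and 0.63 and none passed (adjusted p = 0.17, 0.11 and 0.09). Number 4 occurred only in stimulated WT, so the block set these genotypes mostly against WT number 1. The block and the fit against WT number 1 alone are therefore not separate checks. Eed was higher in CD28 AYAA (0.50 ± 0.15), but did not pass with the block (0.29, adjusted p = 0.26). Its value against WT number 1 alone was much the same as with the block, at 0.30. Dnmt3a was higher in Ars2 KO (0.32 ± 0.10, edgeR adjusted p = 0.042), and did not pass with the block (0.25, adjusted p = 0.27) or against either WT library alone (adjusted p = 0.28 and 0.12). The count of called genes was 2 of 10 for Ars2 KO (12.9% of tested genes), 2 for the CD28 KO label (20%), 2 for DKI (23.4%), 3 for CD28 AYAA (21.7%) and 0 for CD28 Y170F (0.0273%). For CD28 Y170F, 1 gene had an unadjusted p under 0.05 and DESeq2 called 0. The summed NK cell markers were 372 to 473 CPM in CD28 KO, 299 to 338 CPM in DKI, 277 to 415 CPM in CD28 AYAA and 154 to 368 CPM in Ars2 KO at day 3, against 111 to 163 CPM in WT. Of these 6 markers, 3, 2, 2 and 1 were called higher in the 4 genotypes and 0 lower. Of all tested genes 8.57%, 10.3%, 10.4% and 6.6% were called higher. In Ars2 KO at day 3, 4 of the 12 myeloid markers were called higher, at a summed 16 to 32.8 CPM against 10.1 and 10.8 CPM in WT. The cell type markers differed beside these results, and their part in these differences was not tested.

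Without WT libraries, CD28 AYAA differed from CD28 Y170F at day 3 in 4 of the 10 genes, where 36.8% of tested genes were called. Suz12 (0.52 ± 0.15), Eed (0.54 ± 0.13) and Dnmt3b (0.82 ± 0.17) were higher and Tet1 was lower (-0.97 ± 0.17) on the log2 scale. Without CD28 Y170F replicate 1, which had the highest Uhrf1 (488 CPM, beside 269 and 187 CPM), the count was 7. DKI and CD28 KO at day 3 differed in 0 of the 10 genes by edgeR, where 0.454% were called; 3 had an unadjusted p under 0.05 and DESeq2 called 0. With only these groups in the fit the count was 5, to which the 0.454% does not apply.

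Against unstimulated WT, all 10 genes were called at day 3 in Ars2 KO, CD28 KO, DKI and CD28 AYAA and 8 in CD28 Y170F, where 56.8%, 52.1%, 58.1%, 60.2% and 53.8% of tested genes were called. At day 1 the counts were 10 in Ars2 KO, 10 in CD28 AYAA, 9 in CD28 Y170F and 7 in DKI, beside 53.6%, 50%, 54.7% and 49.1%. Tet1 in Ars2 KO and Eed in CD28 AYAA passed close to the threshold (edgeR adjusted p = 0.042 and 0.043), and DESeq2 called 9 genes in CD28 AYAA. Without WT_D0 replicate 1 the DKI count was 4. These comparisons share the same 2 unstimulated libraries.

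**Figure D4:**
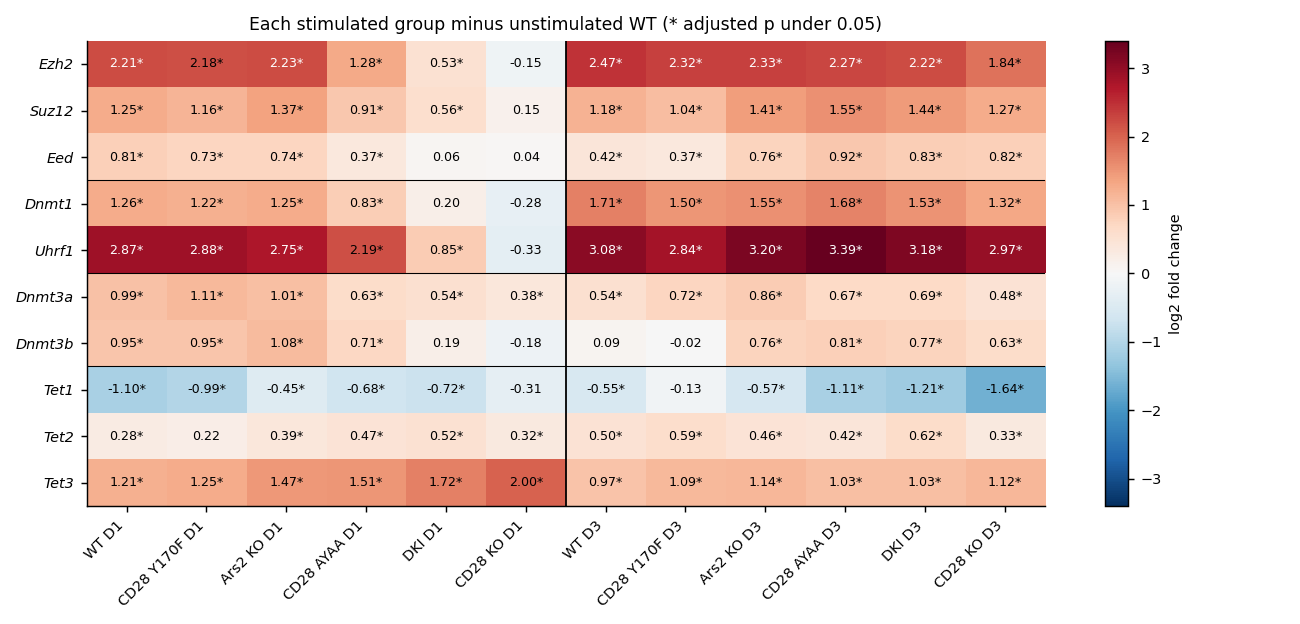
Log2 fold change of each gene (rows) in each stimulated group against unstimulated WT (columns, day 1 left and day 3 right); asterisks mark adjusted p under 0.05. Tet3 is positive in every column, up to 2.00 in CD28 KO at day 1, where Ezh2 is at -0.15.

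Ratios within a library set related enzymes against each other. The ratio of Ezh2 to Ezh1, the gene of the alternative PRC2 methyltransferase, was 0.538 ± 0.0593 (SD, n = 2) per kilobase in unstimulated cells and 3.58 ± 1.76 (n = 2) in WT at day 1. At day 1 it was 1.30 ± 0.0743 in CD28 AYAA (n = 3), 0.680 ± 0.0533 in DKI (n = 3) and 0.307 ± 0.0327 in CD28 KO (n = 2), so that Ezh1 exceeded Ezh2 in DKI and CD28 KO. At day 3 the group means ran from 2.57 in CD28 KO to 4.95 in CD28 AYAA. The ratio of Uhrf1 to Dnmt1 was 0.384 ± 0.0475 before stimulation, 1.15 ± 0.141 in WT at day 1, and 0.604 ± 0.0231 in DKI and 0.362 ± 0.155 in CD28 KO at day 1.

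**Figure D5:**
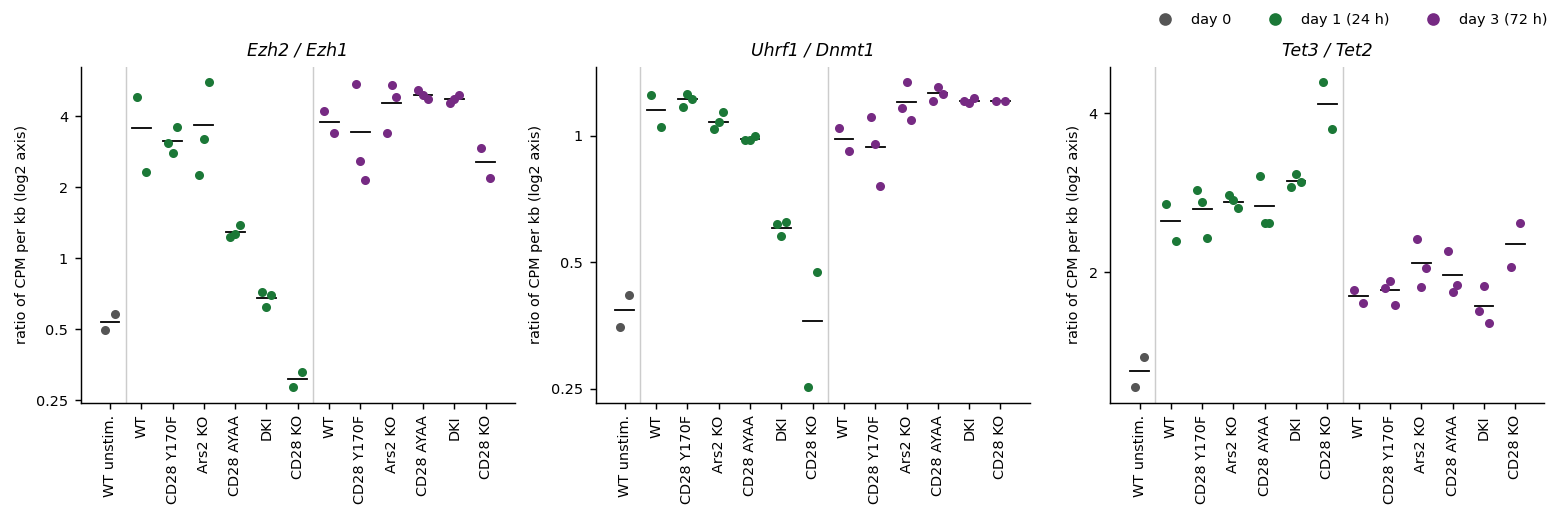
Ratio of CPM per kb (log2 axis) within each library for Ezh2 to Ezh1, Uhrf1 to Dnmt1 and Tet3 to Tet2; points are libraries and bars are group means. The Ezh2 to Ezh1 ratio falls from 3.58 in WT to 0.307 in CD28 KO at day 1.

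The partner genes of these enzymes showed changes in both directions in CD28 KO at day 1, where 18.6% of tested genes were called higher and 24.7% lower. Of 9 other PRC2 subunits, 3 were higher and 5 lower, with Phf1 up by 1.95 ± 0.25, Ezh1 up by 1.12 ± 0.21 and Phf19, an accessory subunit, at -2.38 ± 0.32 on the log2 scale; the list's median was -0.27 beside 0.02 for all tested genes. Of 20 PRC1 subunits, 3 were higher and 7 lower, among them Cbx7 at 1.46 and Pcgf5 at -1.45. Of 12 tested DNA methylation partners and readers, 3 were higher and 5 lower, led by the chromatin remodeller Hells at -3.12 ± 0.27 and its partner Cdca7 at -2.82 ± 0.40. Of 8 methyl donor genes, 1 was higher and 5 lower, including Ahcy, which clears S-adenosylhomocysteine, at -1.62 and Mat2a, which makes S-adenosylmethionine, at -1.06. In DKI at day 1 Hells was at -1.87 and Phf19 at -2.29.

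S phase genes moved beside the Polycomb and maintenance genes. All 23 of the list were lower in CD28 KO at day 1 (median -2.51 on the log2 scale) and all 23 in DKI (median -1.61), and 3 were lower in CD28 AYAA (median -0.62), where 24.7%, 15.8% and 2% of tested genes were called lower. Their summed level was 683 and 943 CPM in CD28 KO at day 1, 1490 to 1550 CPM in DKI, 2610 to 3080 CPM in CD28 AYAA and 3260 and 5390 CPM in WT. Across the 13 group means, Pearson's r was 0.98 between Ezh2 and Dnmt1, 0.98 between Ezh2 and Uhrf1 and 0.98 between Dnmt1 and Uhrf1, but -0.09 between Ezh2 and Tet3; the points share libraries and groups, and no test was made. Of 8842 genes compared in this way, those most like Dnmt1 were Blm (0.998), Zwilch (0.997) and Brca1 (0.996), and those most like Uhrf1 were Pole (0.994), Wdhd1 (0.992) and Atad5 (0.991). Ezh2 was most like Brca2 (0.991), and Tet3 was most like Kmt2d (0.981). The part of the S phase difference in the values of the 10 genes was not tested.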

How the data were processed

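RNA was sequenced from 34 libraries in 13 groups. The deposited values are expected counts per gene. The authors' tools, per the submitters' processing notes, included STAR and RSEM beside bcl2fastq 2.20, with the builds mm10 and GRCm38; their roles, the other versions and whether counting used strand are not given in the sources used here. The deposited expected counts were rounded to whole numbers. edgeR 4.0.16 (R 4.3.3; TMM scaling, filterByExpr, quasi-likelihood F test, 1 mean per group over all libraries) gave 18292 tested genes, with Benjamini-Hochberg adjustment over all of them and a threshold of 0.05; the code was tested on simulated data. A standard error is the log2 fold change divided by the root of F, and intervals cover 95%. In the main fit, p-values rest on a spread per gene estimated over all 13 groups, each of 2 or 3 libraries. They do not measure the spread of the compared groups alone. CPM values are scaled by TMM, which ran from 0.83 to 0.86 in unstimulated cells and up to 1.11 elsewhere. Levels between genes are per 1000 bases of merged exons (GENCODE on GRCm38). Alternatives were other scaling, no filter, a replicate block, only the groups compared, DESeq2 1.42.0, and each library left out in turn; protein-coding genes alone, 1 WT number as the only stimulated WT, and a block with only the groups compared were added after seeing the data. The columns of CD28 KO at day 3 match their group but not single samples, so they entered no block. Only stimulated WT held a number 4, so with the block its comparisons with other genotypes rest mostly on WT number 1. The numbers of CD28 AYAA and CD28 Y170F paired at day 1 (correlations of 0.49, 0.47 and 0.73 between same-numbered libraries, from the data) but not at day 3 (-0.19, 0.23 and 0.21). Across the days, same-numbered libraries correlated at 0.49, 0.26 and 0.65 in CD28 AYAA and at 0.56 in WT. The values were 0.53, 0.25 and -0.08 in Ars2 KO, -0.1, 0.14 and 0.26 in CD28 Y170F, and -0.06, 0.11 and 0.03 in DKI. The main fit held no block, so its tests between days treat the libraries as independent. The 10 genes and the gene lists were chosen with earlier results of these data known. Shares of tested genes called are from the main fit, and those of the alternative fits are not given. All 10 genes are named; from each list, up to 4 genes with the smallest p in a comparison, and for each gene up to 3 with the most similar group means (log2 of CPM plus 0.5, genes with a mean log2 CPM of at least 3). Genes on the opposite strand share exon bases with Ezh2 (174), Suz12 (178), Eed (261), Dnmt3a (133) and Tet2 (43).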

Additional observations from a re-analysis of the deposited data

Results flagged for a closer look

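For 3 genotypes, the difference from WT itself differed between day 3 and day 1 by an interaction test (edgeR quasi-likelihood, adjusted p under 0.05), given here as the day 3 minus day 1 difference on the log2 scale. In CD28 KO, where 35.3% of tested genes were called, 9 of the 10 genes were: Ezh2 at 1.73, Suz12 at 1.19, Eed at 1.17, Dnmt1 at 1.14, Uhrf1 at 3.09, Dnmt3a at 0.55, Dnmt3b at 1.66, Tet1 at -1.88 and Tet3 at -0.64. In DKI (32.5%) 9 were called, Ezh2 at 1.44, Suz12 at 0.94, Eed at 1.17, Dnmt1 at 0.89, Uhrf1 at 2.13, Dnmt3a at 0.60, Dnmt3b at 1.44, Tet1 at -1.04 and Tet3 at -0.46. In CD28 AYAA (24.4%) 6 passed, Ezh2 at 0.74, Suz12 at 0.71, Eed at 0.94, Dnmt3a at 0.49, Dnmt3b at 0.95 and Tet1 at -0.98, and 1 passed with WT number 4 as the only stimulated WT. In Ars2 KO (3.68%) and CD28 Y170F (0%) edgeR called 0 of the 10 and DESeq2 0, with 2 and 0 at an unadjusted p under 0.05.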

How the results depend on the processing

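Counts of called genes, out of the 10, moved by more than 1.5 times as follows. WT at day 3 against day 1 (2) gave 4 without the low-count filter, 5 with the replicate block and 1 with only the groups compared. CD28 AYAA against WT at day 1 (2) gave 5, 5 and 1 under the same settings. Ars2 KO at day 3 (2) gave 1 with RLE factors, 1 without the filter, 0 with the block and 0 with only the groups compared. CD28 KO at day 3 (2) gave 4 with protein-coding genes alone, and with the block DKI at day 3 (2) gave 1 and CD28 AYAA at day 3 (3) gave 1. With only the groups compared, DKI against CD28 KO gave 6 at day 1 (2) and 5 at day 3 (0), and CD28 AYAA against CD28 Y170F at day 1 (2) gave 7; the latter gave 4 without the filter and 10 with the replicate block, and at day 3 (4) the block gave 2. The day 3 minus day 1 difference of CD28 AYAA (6) gave 1 with WT number 4 as the only stimulated WT. Without TMM factors, 34 group means moved by more than 1 SD.

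Leaving out each library in turn gave 3 to 4 for WT at day 3 against day 1, 3 to 9 for DKI at day 1 (3 without WT replicate 1), 0 to 6 for CD28 AYAA at day 1, 0 to 2 for Ars2 KO at day 3 (0 without either WT library, Ars2 KO replicate 1 or replicate 2), 1 to 2 for CD28 KO at day 3, 1 to 2 for DKI at day 3, 1 to 3 for CD28 AYAA at day 3 and 0 to 1 for CD28 Y170F at day 3. It gave 4 to 7 for DKI at day 1 against unstimulated WT, 0 to 2 for DKI against CD28 KO at day 1, 3 to 7 for CD28 AYAA against CD28 Y170F at day 3, 0 to 1 for the day difference of Ars2 KO and 1 to 8 for that of CD28 AYAA. Of 168 called differences, DESeq2 lost 4, RLE 5, the missing filter 3, only the groups compared 11 and protein-coding genes 1, and the replicate block 7 of those it could fit. Of the day differences called, with WT number 4 as the only stimulated WT, 9 were lost and 15 held, and with number 1, 3 were lost and 21 held. Over all called differences and each library left out in turn, 95 calls were lost and 808 held. No direction reversed under any of these. The cause of these shifts was not tested. With 2 WT libraries on each day that differ in depth, the genotype comparisons are limited by those libraries.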

Other observations

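Some genes from the lists of TET partners with base excision and of methyl donor supply also differed from WT. At day 3, of 8 tested genes of the first list, 1 was called higher and 0 lower in Ars2 KO. In CD28 AYAA 2 were higher and 3 lower, in CD28 KO 1 and 1, and in DKI 1 and 2. Of all tested genes, 12.9%, 21.7%, 20% and 23.4% were called in these comparisons. Gadd45g, a stress-induced gene linked to DNA repair, was higher at day 3 by 3.08 ± 0.53 in Ars2 KO, 2.90 ± 0.53 in CD28 AYAA, 3.05 ± 0.55 in CD28 KO and 2.93 ± 0.54 in DKI on the log2 scale (edgeR adjusted p = 4.8e-04, 3.7e-04, 3.6e-04 and 2.9e-04). At day 1 Gadd45a was higher and Gadd45b lower, by log2 fold changes of 2.17 and -1.67 in CD28 KO, 1.65 and -1.35 in DKI and 1.41 and -1.41 in CD28 AYAA. Mat2a, at -1.06 in CD28 KO at day 1 against WT, was at 1.13 ± 0.18 at day 3.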
